A study of Mus musculus with 52 samples.

Results

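The genes described here are 8 that carry out triglyceride assembly and glyceroneogenesis: Gpd1, Gpam, Agpat2, Lpin1, Dgat1, Dgat2, Pck1 and Aqp7. They were taken by name: each is stood for by a probe set annotated to that symbol alone, the one with the highest mean where a gene had several. They are 8 of 22180 genes so represented on the Affymetrix Mouse Gene 2.0 ST array, and all 8 are among the 14911 genes tested. RNA came from primary bone marrow stromal cell cultures of female C57BL/6J mice aged 8 weeks, plated 7 days before induction. All groups but 1 were induced in osteoinductive medium containing 10 nM dexamethasone, insulin at 0.5 µg/ml, ascorbate and β-glycerol phosphate, so the vehicle cultures carried these agents too. Chemicals were added with that medium and cells were harvested at day 1 or day 4. Rosi, 100 nM rosiglitazone, activates PPARγ, the master receptor of adipogenesis. LG268, 100 nM LG100268, activates RXR, with which PPARγ pairs on DNA. TBT (80 nM) is tributyltin, an organotin that binds both receptors. TPhP is triphenyl phosphate, a flame retardant, and MEHP the monoester metabolite of a phthalate plasticizer; no dose of either stands in the labels. Vehicle cultures received 0.1% DMSO, and naive cells were harvested untreated before induction. The 13 groups (naive, and 5 chemicals and vehicle at each day) held 4 arrays each, 52 in all. Each group had 1 array for each of the numbers 12, 15, 19 and 20 in the sample titles, read here as 4 pools, each of cells from 2 to 4 animals.

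Fat cells store energy by joining fatty acids to a glycerol backbone. GPD1 makes glycerol 3-phosphate from a glycolytic intermediate, and PCK1 feeds the same intermediate from pyruvate-derived carbon, the route called glyceroneogenesis. GPAM and AGPAT2 then attach fatty acids in turn, lipin 1 removes the phosphate, and DGAT1 or DGAT2 adds the last fatty acid, while AQP7 is the channel through which glycerol crosses the fat cell membrane. Several of these genes, Pck1 and Aqp7 among them, are known targets of PPARγ in fat.

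Values are the authors' deposited log2 values, and differences are log2 differences ± SE from limma, with p-values adjusted over all 14911 genes. The SE of a gene is pooled over all groups, so SEs and intervals assume equal spread in every group. The words rose and fell are kept for an adjusted p under 0.05. Where 4 values are listed, they are the arrays of pools 12, 15, 19 and 20 in that order. Levels of different probe sets are not compared. The median of the whole table, 4.05, serves as a mark for low signal: 7 of the 8 genes lay above it on 52 of 52 arrays, and Pck1 on 46. Array medians ran between 3.97 and 4.15, and precision is limited by the number of arrays.

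Marrow stromal markers were present on all arrays (9 genes, array means between 8.91 and 10.44), but so were macrophage markers (7 genes, array means between 9.37 and 11.17), so the cultures were mixed. In bulk RNA, fewer cells of a type and less RNA per cell cannot be told apart. At day 4 all 7 macrophage markers fell with Rosi, and 6 of 9 stromal and 4 of 5 osteoblast markers fell as well. With TBT, TPhP and MEHP at day 4, 1, 2 and 1 macrophage markers and 4, 3 and 4 osteoblast markers fell, in that order, and with LG268 none of either. Of 9 stromal markers, 3 rose with LG268, 2 rose and 2 fell with TBT, 3 fell with TPhP and 2 fell with MEHP. Lepr, a stromal marker, averaged 10.81 with LG268 and 8.92 with vehicle. Of 3 osteoclast markers, 3 fell with TBT and 2 with each other chemical, LG268 included. Ctsk, one of them, averaged 7.84 with LG268, 7.23 with TBT, 7.01 with TPhP, 7.25 with MEHP and 6.69 with Rosi, against 9.07 with vehicle. Of 4 neutrophil markers 2 fell with LG268 and 2 with TBT, and of 3 endothelial markers 1 rose with Rosi, LG268 and MEHP and 3 with TBT. Over all genes tested at day 4, 27.7% were called lower with Rosi, 9.42% with TBT, 7.94% with TPhP, 11.7% with MEHP and 2.26% with LG268. The shares called higher were 21.3%, 10.6%, 11%, 12.1% and 4.21% in that order. Marker counts near these shares are not read as particular to a cell type. The part of these marker changes in the results below was not tested. The Rosi array of pool 15 at day 4 stood apart from the other Rosi arrays of that day. Its macrophage marker mean was 10.61, against 9.37 to 9.69 in the other 3 pools. Its mean over 6 adipocyte markers was 9.81, against 10.22 to 10.34. Results that rest on day 4 Rosi are therefore also given without that array where a call changed.

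At day 4 the pathway was higher at nearly every step with Rosi, TPhP, MEHP and TBT, and in fewer genes with LG268. All 8 genes rose with Rosi, TPhP and MEHP, 7 of 8 rose with TBT, Pck1 being the exception, and 3 of 8 rose with LG268. Over all genes tested, 21.3% were called higher with Rosi, 11% with TPhP, 12.1% with MEHP, 10.6% with TBT and 4.21% with LG268. The median difference of the 8 genes was 3.38 with Rosi, 2.67 with TPhP, 2.62 with MEHP, 2.28 with TBT and 0.80 with LG268, beside medians of all genes between -0.05 and -0.02. None of the 8 fell in any of these comparisons. Among all genes, 27.7% were called lower with Rosi, 7.94% with TPhP, 11.7% with MEHP, 9.42% with TBT and 2.26% with LG268. For Rosi, TPhP, MEHP and TBT, every called gene of the 8 had 4 treated arrays above all 4 vehicle arrays. This describes genes already called and is no further support, and the share over all genes was not counted.

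At day 1 Rosi stood alone in the number of genes called. With Rosi 7 of 8 rose, all but Pck1, while TBT, TPhP and MEHP each raised Aqp7 and no other of the 8, and LG268 raised none. The shares of all genes called higher were 4.16% with Rosi, 0.496% with TBT, 0.181% with TPhP, 0.362% with MEHP and 0.228% with LG268. The shares called lower were 3.08%, 0.0469%, 0.0335%, 0.161% and 0.0134% for the same chemicals in that order. Calls were sensitive to the pairing of arrays by pool. With the pool as a replicate block, LG268 at day 1 also raised Gpd1 (adjusted p = 0.00201). In that fit TPhP raised Gpd1 (adjusted p = 0.0132) and Dgat2 (adjusted p = 0.0256), and MEHP raised Gpd1 (adjusted p = 0.000702). This made 1, 3 and 2 of the 8 genes called with LG268, TPhP and MEHP. Over all genes tested, the block fit called 68, 71 and 176 in that order, in either direction, against 36, 32 and 78 without the block.

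**Figure D1:**
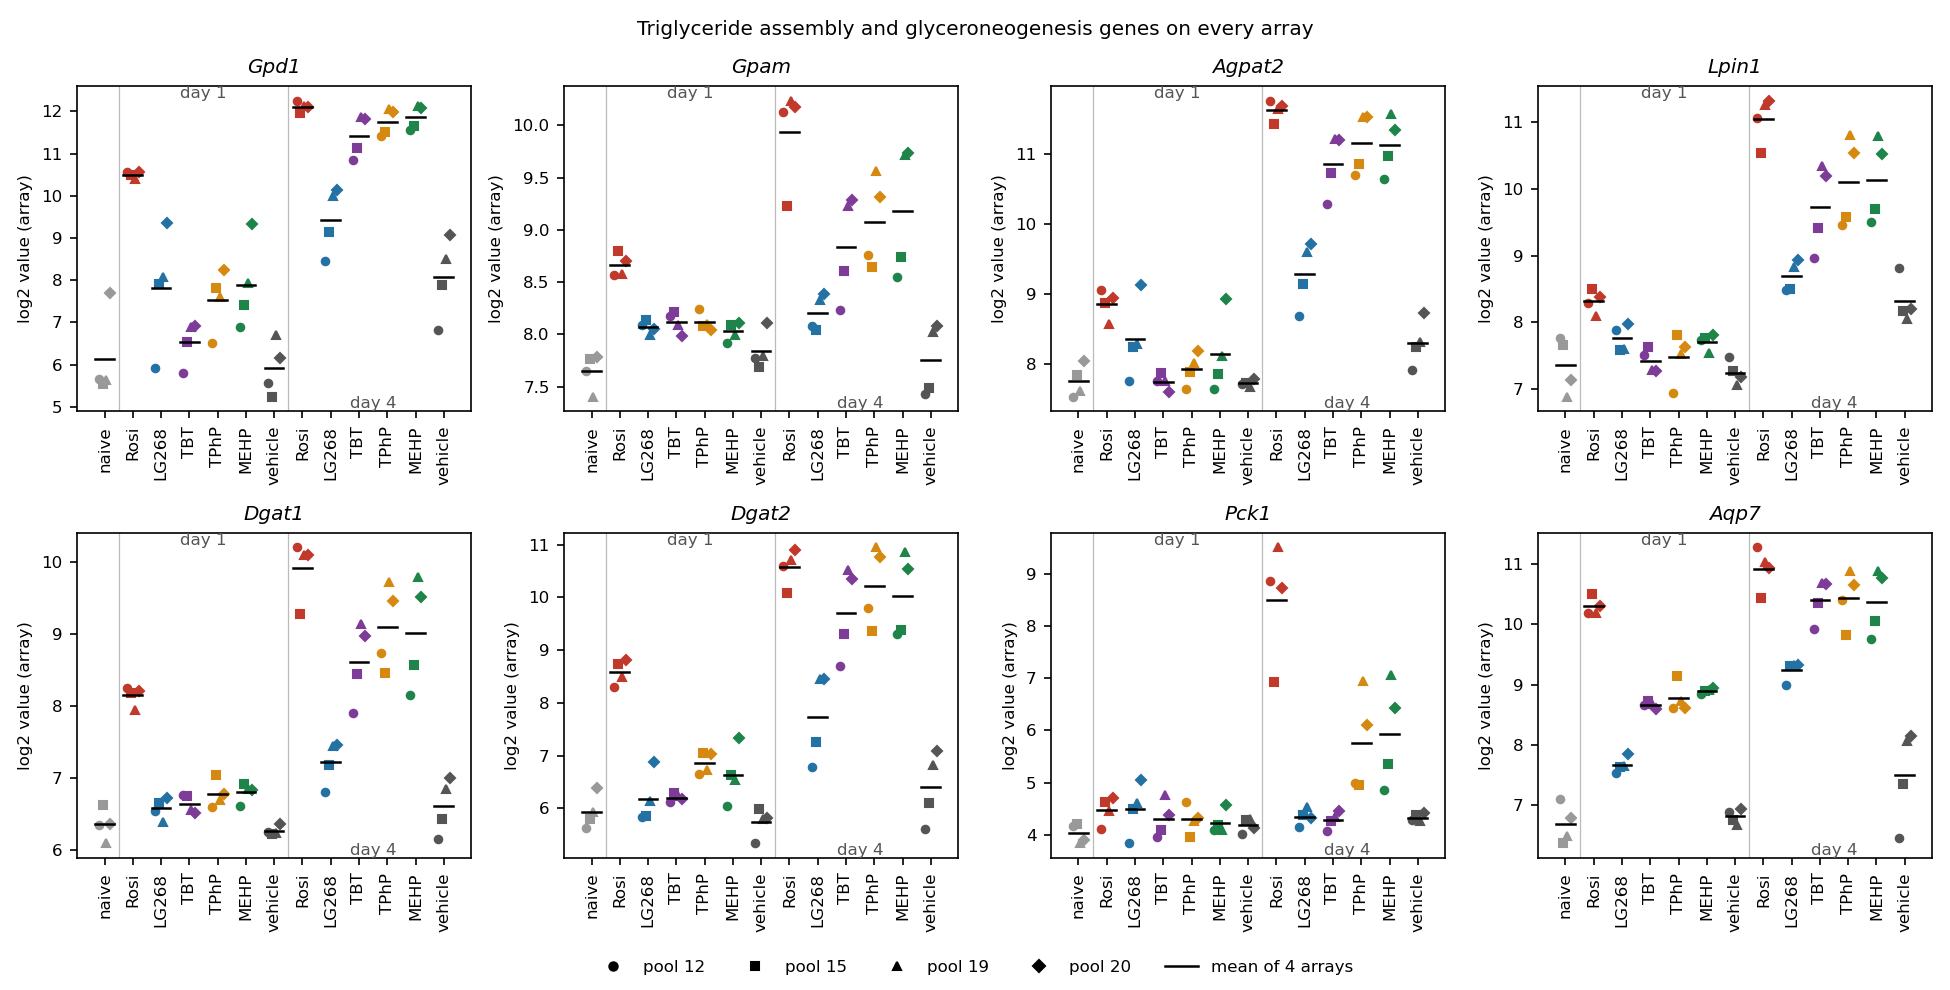
Log2 value of each of the 8 genes on all 52 arrays, 1 panel a gene, with naive cells, the 6 groups of day 1 and the 6 groups of day 4 from left to right; the marker shape gives the pool and the bar the mean of 4 arrays. Rosi arrays at day 1 stand above vehicle for 7 genes, and for Pck1 only day 4 groups leave the low range, Rosi between 6.93 and 9.50.

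The supply of the glycerol backbone starts with Gpd1, cytosolic glycerol-3-phosphate dehydrogenase (chromosome 15, 99717587 to 99725014, GRCm38.p6, probe set 17314888). At day 4 it measured 12.25, 11.96, 12.13 and 12.11 with Rosi, against 6.81, 7.89, 8.50 and 9.07 with vehicle. The values with TBT were 10.84, 11.12, 11.87 and 11.82, with TPhP 11.42, 11.52, 12.07 and 11.98, and with MEHP 11.57, 11.66, 12.11 and 12.07. Arrays of these 4 chemicals lay above every vehicle array, and the vehicle arrays themselves spread far more widely than the Rosi ones. The differences from vehicle were 4.05 ± 0.51 with Rosi (adjusted p = 1.08e-08), 3.34 ± 0.51 with TBT, 3.68 ± 0.51 with TPhP and 3.79 ± 0.51 with MEHP. LG268 gave 8.45, 9.14, 9.99 and 10.13, which overlapped vehicle; the difference of 1.36 ± 0.51 did not pass (adjusted p = 0.106), but it was positive in 4 of 4 pools and passed with the pool as block (adjusted p = 0.00869).

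At day 1 Gpd1 measured 10.55, 10.50, 10.39 and 10.57 with Rosi, against 5.57, 5.25, 6.71 and 6.16 with vehicle. With this probe set the rise was 4.58 ± 0.51 (24-fold, adjusted p = 1.04e-08), the greatest of the 8 genes at that day. MEHP arrays, between 6.88 and 9.34, all lay above vehicle, with a difference of 1.98 ± 0.51 (adjusted p = 0.0684). LG268 arrays ran between 5.92 and 9.35, TPhP between 6.51 and 8.24 and TBT between 5.81 and 6.93, each overlapping vehicle. In the order of group means over all 13 groups, the lowest 8 groups overlapped their neighbours, from vehicle at day 1 to LG268 at day 4. Rosi at day 1 stood apart from LG268 at day 4 below it and from TBT at day 4 above it, and the 4 highest groups overlapped. A second Gpd1 probe set, 17321626, averaged 5.95 ± 0.23 with Rosi and 4.10 ± 0.28 with vehicle at day 1, a smaller difference than in the first. At day 4 it averaged 7.97 ± 0.33 with Rosi, 6.65 ± 0.72 with TBT and 4.39 ± 0.52 with vehicle (SD, n = 4 each). The rank of Gpd1 at day 1 thus rests on the probe set used.

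Pck1 encodes the cytosolic phosphoenolpyruvate carboxykinase of glyceroneogenesis (chromosome 2, 173153073 to 173159274, GRCm38.p6, probe set 17380222), and its group means followed those of the other 7 genes least closely (median Pearson correlation 0.76 over 13 groups). At day 4 it measured 8.85, 6.93, 9.50 and 8.72 with Rosi. TPhP gave 4.99, 4.95, 6.95 and 6.11, and MEHP gave 4.87, 5.36, 7.05 and 6.43. TBT arrays measured 4.08, 4.26, 4.34 and 4.46, and LG268 arrays 4.16, 4.39, 4.54 and 4.32, against 4.28, 4.38, 4.26 and 4.42 with vehicle. TBT and LG268 arrays thus overlapped vehicle, some below and some above its range, while the Rosi, TPhP and MEHP arrays all lay above it. Vehicle lay near the table median, so the sizes of these differences are uncertain. The rise with Rosi was 4.16 ± 0.37 (adjusted p = 1.37e-12), that with TPhP 1.42 ± 0.37 (adjusted p = 0.00427) and that with MEHP 1.59 ± 0.37 (adjusted p = 0.00101). The difference with TBT was -0.05 (95% interval -0.79 to 0.69, adjusted p = 0.949), and with LG268 it was 0.02 (-0.73 to 0.76). The SE is pooled over all groups, but the spread of Pck1 was unequal. At day 4 the SD was 1.10 with Rosi, 0.96 with TPhP and 0.99 with MEHP. It was 0.16 with TBT, 0.16 with LG268 and 0.08 with vehicle. The pooled SE may thus be too large for TBT and LG268, and too small for Rosi, TPhP and MEHP. The TPhP call was lost without pool 19 (adjusted p = 0.113) or pool 20 (adjusted p = 0.0894), and the MEHP call without pool 20 (adjusted p = 0.052). Both were also lost in a fit of only the arrays of the groups compared, at adjusted p = 0.0872 for TPhP and 0.0557 for MEHP.

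At day 1 Pck1 ran between 3.85 and 5.05 over the 24 arrays of that day, near the table median. With Rosi it measured 4.11, 4.62, 4.46 and 4.71, against 4.02, 4.28, 4.30 and 4.14 with vehicle. Those groups overlapped, and the difference of 0.29 had a 95% interval of -0.45 to 1.03 (adjusted p = 0.777). In the order of the 13 group means each group overlapped the next; between Rosi and MEHP at day 4, the 2 highest, the overlap was that of the Rosi array of pool 15, at 6.93. The Pck1 window of the RefSeq promoter table (chr2:173152823-173153122, plus strand, GRCm38.p6) held no match to the motif described for Aqp7 below.

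Gpam encodes the mitochondrial acyltransferase that attaches the first fatty acid (chromosome 19, 55067635 to 55127319, GRCm38.p6, probe set 17365728), and with Rosi at day 4 its difference was the smallest of the 8. At day 4 it measured 10.12, 9.23, 10.23 and 10.18 with Rosi, against 7.43, 7.48, 8.02 and 8.08 with vehicle. TBT gave 8.23, 8.61, 9.23 and 9.29, TPhP 8.76, 8.64, 9.56 and 9.31, and MEHP 8.55, 8.74, 9.71 and 9.73. All of these lay above vehicle, and pool 15 was lowest by far among the Rosi arrays. Gpam rose by 2.19 ± 0.22 with Rosi (4.56-fold, adjusted p = 3.53e-11), 1.09 ± 0.22 with TBT (adjusted p = 0.000332), 1.32 ± 0.22 with TPhP and 1.43 ± 0.22 with MEHP. LG268 arrays ran between 8.04 and 8.38 and overlapped vehicle, with a difference of 0.45 (95% interval 0.01 to 0.90, adjusted p = 0.229). At day 1 Rosi arrays, between 8.57 and 8.80, lay above vehicle arrays, between 7.69 and 8.11. That rise of 0.82 ± 0.22 (adjusted p = 0.0121) did not pass without pool 15, 19 or 20, at adjusted p = 0.0859, 0.0622 and 0.0539. In the order of the 13 group means the only neighbours that did not overlap were LG268 at day 4 and Rosi at day 1 above it.

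Agpat2 encodes the acyltransferase that attaches the second fatty acid, and its loss causes lipodystrophy in humans (chromosome 2, 26593057 to 26604417, GRCm38.p6, probe set 17383104). Its day 4 arrays measured 11.76, 11.43, 11.64 and 11.69 with Rosi, against 7.92, 8.23, 8.31 and 8.72 with vehicle. TBT gave 10.28, 10.73, 11.21 and 11.20, TPhP 10.71, 10.85, 11.53 and 11.54, and MEHP 10.65, 10.97, 11.57 and 11.34. These arrays lay well above vehicle, and LG268, at 8.68, 9.14, 9.60 and 9.71, overlapped it by 1 array. The rises were 3.34 ± 0.25 with Rosi (10.1-fold, adjusted p = 1.94e-14), 2.56 ± 0.25 with TBT, 2.86 ± 0.25 with TPhP, 2.84 ± 0.25 with MEHP and 0.99 ± 0.25 with LG268 (adjusted p = 0.00942). The LG268 call did not hold without pool 15 (adjusted p = 0.0987), without pool 19 (adjusted p = 0.12) or with only the arrays compared (adjusted p = 0.0816). At day 1 Rosi arrays measured 9.06, 8.87, 8.56 and 8.94, against 7.71, 7.73, 7.67 and 7.78 with vehicle, a rise of 1.14 ± 0.25 (adjusted p = 0.00158). TBT arrays of that day, between 7.60 and 7.86, lay around the vehicle arrays, and the difference of 0.02 had a 95% interval of -0.48 to 0.52. Over the 13 groups, neighbours in the order of means overlapped except LG268 and, above it, TBT, both at day 4.

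Lpin1 encodes lipin 1, the phosphatidate phosphatase first known from the fatty liver dystrophy mouse (chromosome 12, 16535669 to 16653903, GRCm38.p6, probe set 17280062). Day 4 arrays measured 11.05, 10.53, 11.25 and 11.31 with Rosi, against 8.82, 8.18, 8.06 and 8.20 with vehicle. With TBT it measured 8.96, 9.42, 10.34 and 10.19, with TPhP 9.45, 9.58, 10.80 and 10.54, and with MEHP 9.50, 9.69, 10.79 and 10.52. Pools 19 and 20 stood well above pools 12 and 15 with these 3 chemicals, and all arrays stayed above vehicle. Lpin1 rose by 2.72 ± 0.27 with Rosi (adjusted p = 2.49e-11), 1.41 ± 0.27 with TBT (adjusted p = 0.000155), 1.78 ± 0.27 with TPhP and 1.81 ± 0.27 with MEHP. LG268 arrays ran between 8.49 and 8.94, a difference of 0.37 (95% interval -0.17 to 0.92). At day 1 Rosi arrays, between 8.10 and 8.49, lay above vehicle, between 7.06 and 7.48. That rise of 1.07 ± 0.27 (adjusted p = 0.00722) did not pass without pool 15 (adjusted p = 0.0652) or pool 20 (adjusted p = 0.113). Of the 13 groups in order, the 6 lowest (naive cells and all groups of day 1 but Rosi) did not overlap vehicle at day 4, the next above them, and LG268 at day 4 did not overlap TBT at day 4.

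The last acylation has 2 unrelated enzymes, and both genes rose. Dgat1 (chromosome 15, 76502012 to 76512021, GRCm38.p6, probe set 17318502) encodes an enzyme of the endoplasmic reticulum that also re-esterifies fatty acids released by lipolysis. At day 4 it measured 10.21, 9.28, 10.11 and 10.10 with Rosi, against 6.16, 6.44, 6.85 and 7.01 with vehicle. TBT gave 7.90, 8.45, 9.14 and 8.98, TPhP 8.74, 8.47, 9.73 and 9.47, and MEHP 8.15, 8.58, 9.80 and 9.52. No array of these overlapped vehicle, and the Rosi array of pool 15 again lay apart from its group. Dgat1 rose by 3.31 ± 0.26 with Rosi (9.91-fold, adjusted p = 6.29e-14), 2.00 ± 0.26 with TBT, 2.49 ± 0.26 with TPhP and 2.40 ± 0.26 with MEHP. At day 1 it rose by 1.88 ± 0.26 with Rosi (adjusted p = 9.77e-07), with arrays between 7.95 and 8.25, against 6.22 to 6.37 with vehicle. All TBT, TPhP, MEHP and LG268 arrays of day 1 also lay above all vehicle arrays, by 0.31 to 0.54 on average, and none of these differences passed. LG268 at day 4 and Rosi at day 1 were the only neighbours in the order of the 13 means without overlap.

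Dgat2 (chromosome 7, 99153663 to 99182713, GRCm38.p6, probe set 17493632) encodes the enzyme tied to newly made fatty acids and to lipid droplets. Its arrays of day 4 measured 10.59, 10.08, 10.71 and 10.90 with Rosi, against 5.60, 6.10, 6.83 and 7.10 with vehicle. TBT gave 8.70, 9.30, 10.52 and 10.34, TPhP 9.80, 9.37, 10.95 and 10.77, and MEHP 9.30, 9.39, 10.86 and 10.54. LG268 gave 6.78, 7.25, 8.45 and 8.45, which overlapped vehicle, while the other 4 chemicals did not. Dgat2 rose by 4.16 ± 0.38 with Rosi (17.9-fold, adjusted p = 3.33e-12), 3.31 ± 0.38 with TBT, 3.81 ± 0.38 with TPhP, 3.62 ± 0.38 with MEHP and 1.33 ± 0.38 with LG268 (adjusted p = 0.0252). The LG268 call did not hold without pool 15, 19 or 20, at adjusted p = 0.108, 0.129 and 0.0969, or with only the arrays compared (adjusted p = 0.174). At day 1 Rosi arrays measured 8.31, 8.74, 8.49 and 8.81, against 5.34, 5.99, 5.80 and 5.82 with vehicle, a rise of 2.85 ± 0.38 (adjusted p = 5.27e-07). TPhP arrays of that day, between 6.64 and 7.06, all lay above vehicle as well, with a difference of 1.13 ± 0.38 (adjusted p = 0.433, and 0.0256 with the pool as block). All neighbours in the order of the 13 group means overlapped.

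Aqp7, the glycerol channel (chromosome 4, 41033074 to 41048237, GRCm38.p6, probe set 17424105), was called with the most chemicals at day 1 in the fit without a pool block. With the pool as block, Gpd1 was called with as many chemicals as Aqp7. PPARγ and RXR bind together to direct repeats of the half-site AGGTCA spaced by 1 base, so the motif AGGTCANAGGTCA was searched on both strands in the RefSeq promoter windows (250 bases before to 50 after a start, GRCm38.p6), with at most 2 mismatches among its 12 fixed letters. Windows were given for 5 of the 8 genes (Agpat2, Pck1, Aqp7, Lpin1 and Gpam), 7 windows in all, and the Aqp7 windows alone held a match. Each match had 2 mismatches, the most allowed. The half-site AGGTCA also stood in the Lpin1 window and in 1 Gpam window. Sequence outside these windows was not searched, so the other genes may hold sites elsewhere. The Aqp7 window with most matches is shown because, without the pool block, Aqp7 alone was called at day 1 outside Rosi. That window lies at chr4:41047913-41048212 on the minus strand, and the capitals mark its 2 matches.
Aqp7: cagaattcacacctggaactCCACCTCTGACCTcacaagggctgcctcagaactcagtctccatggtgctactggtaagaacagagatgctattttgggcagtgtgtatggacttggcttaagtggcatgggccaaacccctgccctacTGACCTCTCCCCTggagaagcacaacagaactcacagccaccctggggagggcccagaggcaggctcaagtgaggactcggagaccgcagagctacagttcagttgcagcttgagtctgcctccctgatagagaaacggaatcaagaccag
Read on the other strand, the matches are AGGTCAGAGGTGG, 230 to 218 bases before the start, and AGGGGAGAGGTCA, 101 to 89 bases before it. The first also lies in the second Aqp7 window (chr4:41048087-41048386), 56 to 44 bases before that start. Of 32851 windows, 3.86% held a match with at most 2 mismatches, 0.55% with at most 1 and 0.04% with none, and 16.26% held the half-site alone, which every perfect match contains. A match is a description of letters and not a site shown to be bound.

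At day 1 Aqp7 measured 10.19, 10.50, 10.20 and 10.31 with Rosi, against 6.89, 6.75, 6.66 and 6.94 with vehicle. TBT gave 8.66, 8.73, 8.67 and 8.59, TPhP 8.62, 9.15, 8.73 and 8.61, and MEHP 8.84, 8.89, 8.91 and 8.94. LG268 gave 7.53, 7.63, 7.64 and 7.85. These values fell into steps that did not overlap: Rosi on top, TBT, TPhP and MEHP together, then LG268, then vehicle. The rises were 3.49 ± 0.24 with Rosi (11.2-fold, adjusted p = 1.91e-14), 1.85 ± 0.24 with TBT (3.61-fold, adjusted p = 3.1e-06), 1.97 ± 0.24 with TPhP (adjusted p = 1.83e-06) and 2.09 ± 0.24 with MEHP (adjusted p = 2.2e-07). The difference with LG268 was 0.85 ± 0.24, positive in 4 of 4 pools, and did not pass (adjusted p = 0.241, and 0.0941 with the pool as block), though it did with only the arrays compared (adjusted p = 0.00449).

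At day 4 Aqp7 measured 11.28, 10.44, 11.03 and 10.93 with Rosi, against 6.46, 7.35, 8.06 and 8.14 with vehicle. TBT arrays ran between 9.92 and 10.69, TPhP between 9.82 and 10.89 and MEHP between 9.76 and 10.88, and LG268 gave 8.99, 9.31, 9.33 and 9.33. All 5 chemicals lay above every vehicle array, LG268 below the other 4. Aqp7 rose by 3.42 ± 0.24 with Rosi, 2.91 ± 0.24 with TBT, 2.94 ± 0.24 with TPhP, 2.87 ± 0.24 with MEHP and 1.74 ± 0.24 with LG268 (adjusted p = 3.05e-06 for LG268). It was the only one of the 8 genes for which no LG268 array at day 4 overlapped vehicle. In the order of the 13 means the 5 highest groups, Rosi at day 1 and Rosi, TBT, TPhP and MEHP at day 4, overlapped one another's neighbours and lay clear of the rest.

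**Figure D2:**
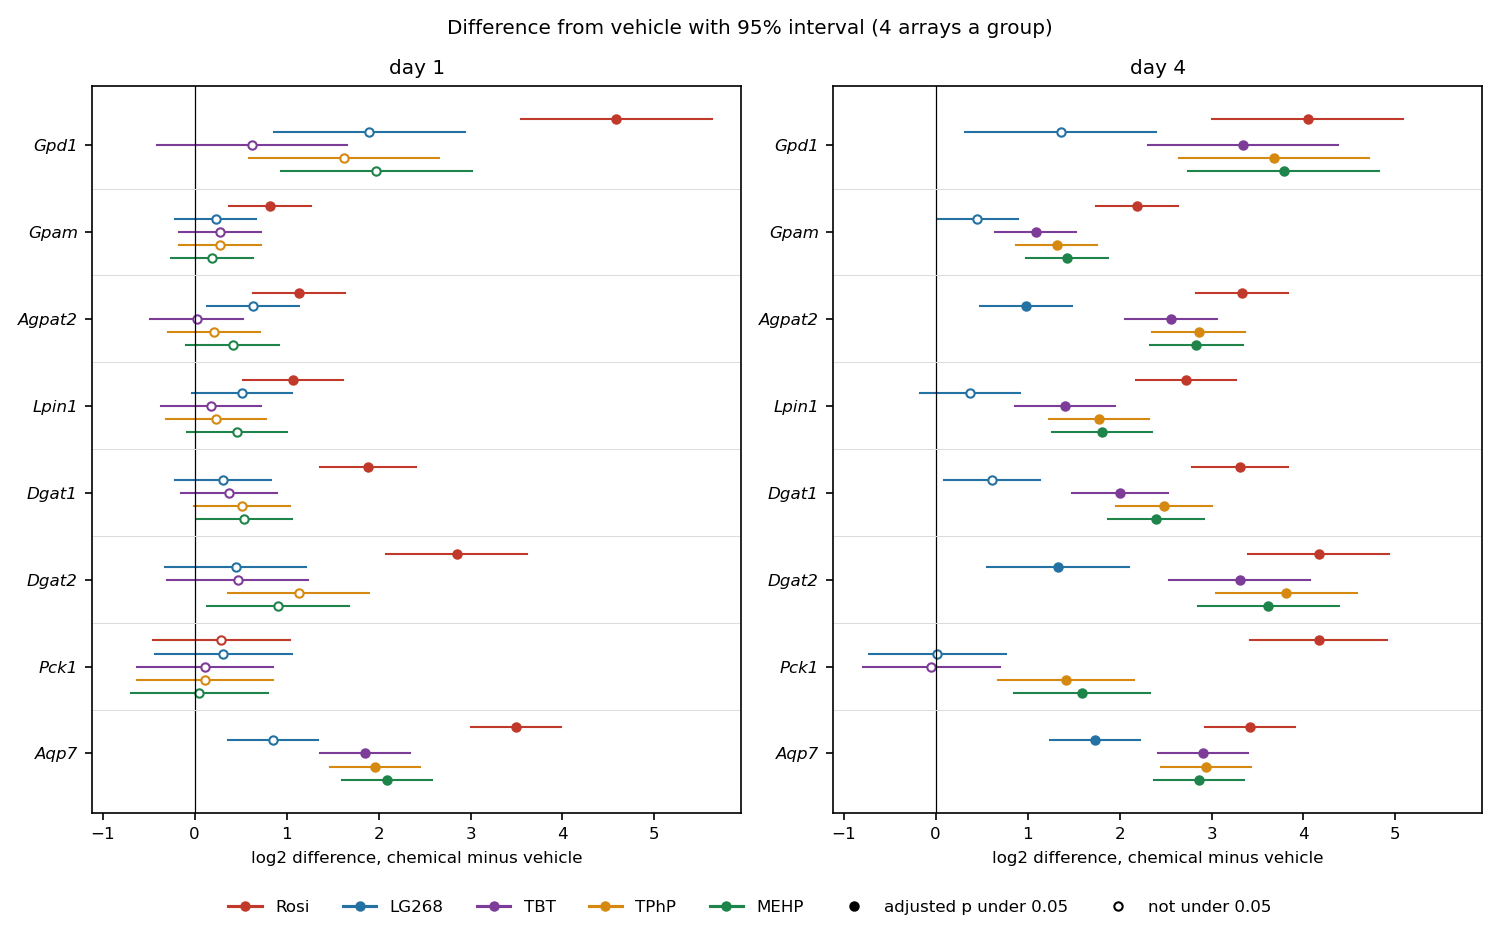
Log2 difference of each chemical from vehicle with its 95% interval, at day 1 on the left and day 4 on the right; filled points passed at an adjusted p under 0.05 and open points did not. At day 1 filled points outside Rosi are those of Aqp7, and at day 4 the TBT and LG268 points of Pck1, at -0.05 and 0.02, lie near zero.

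In vehicle cultures alone, 3 of the 8 genes rose over naive cells by day 4. Between vehicle at day 1 and naive cells none of the 8 genes passed with limma, with differences between -0.21 and 0.19, while 12.9% of all genes were called higher and 4.86% lower (4449 genes at an unadjusted p under 0.05). Vehicle at day 4 exceeded naive cells in 3 genes, Gpd1 (1.94 ± 0.51, adjusted p = 0.00359), Lpin1 (0.95 ± 0.27, adjusted p = 0.00637) and Aqp7 (0.82 ± 0.24, adjusted p = 0.00901), beside 17.4% of all genes higher and 11.5% lower. Gpd1 in vehicle at day 4, between 6.81 and 9.07, was overlapped by 1 naive array, of pool 20, the naive values being 5.66, 5.54, 5.64 and 7.69. In that naive array the adipocyte marker mean was 6.47, against 4.73 to 5.69 in the other naive arrays; its part in the result was not tested. Against vehicle at day 1, vehicle at day 4 was higher in Gpd1 (2.15 ± 0.51, adjusted p = 0.00382) and Lpin1 (1.06 ± 0.27, adjusted p = 0.00612), beside 4.6% of all genes higher and 8.29% lower. With the pool as block, Agpat2 (adjusted p = 0.0265) and Aqp7 (adjusted p = 0.0293) passed too, making 4, and against naive cells Agpat2 passed too (adjusted p = 0.0213). Without pool 15 Gpd1 did not pass against naive cells (adjusted p = 0.0534) or day 1 (adjusted p = 0.0649), and without pool 20 Lpin1 did not (adjusted p = 0.0628 and 0.0536). Against naive cells, Gpd1 did not pass without pool 19 (adjusted p = 0.0953), nor Aqp7 without pool 15, 19 or 20 (adjusted p between 0.0506 and 0.191). With only the arrays compared, neither Gpd1 (adjusted p = 0.0535) nor Aqp7 (adjusted p = 0.146) passed against naive cells.

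Whether a chemical's difference from vehicle itself grew between day 1 and day 4 was tested as an interaction, day 4 minus day 1. With Rosi it grew for 5 genes, most for Pck1 (3.88 ± 0.52, adjusted p = 3.45e-07), then Agpat2 (2.20 ± 0.35), Lpin1 (1.66 ± 0.38), Dgat1 (1.43 ± 0.37) and Gpam (1.37 ± 0.31). Gpd1 and Aqp7, the genes with the greatest rises at day 1 by the probe sets used, had changes of -0.54 (95% interval -2.01 to 0.93) and -0.07 (-0.76 to 0.62) with Rosi. For Gpd1 this depends on the probe set. The second one, 17321626, averaged 5.95 with Rosi and 4.10 with vehicle at day 1, and 7.97 and 4.39 at day 4. Its vehicle mean at day 1 lay near the table median, and its change between days was not tested. Dgat2 changed by 1.31 ± 0.54 (adjusted p = 0.0606), and passed without the Rosi array of pool 15 at day 4 (adjusted p = 0.0366) and with the pool as block (adjusted p = 0.00453). Of all genes, 14.4% were called for a positive change with Rosi, be it a greater excess over vehicle or a smaller deficit.

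With TBT the difference grew for 4 genes: Dgat2 (2.84 ± 0.54, adjusted p = 0.0022), Gpd1 (2.72 ± 0.73, adjusted p = 0.0395), Agpat2 (2.54 ± 0.35, adjusted p = 5.03e-05) and Dgat1 (1.63 ± 0.37, adjusted p = 0.0108). With TPhP it grew for 5 genes and with MEHP for 5, tests that share the vehicle arrays. The values with TPhP and MEHP were, for Agpat2 2.65 ± 0.35 and 2.42 ± 0.35, for Dgat2 2.68 ± 0.54 and 2.71 ± 0.54, for Dgat1 1.97 ± 0.37 and 1.86 ± 0.37, for Lpin1 1.55 ± 0.38 and 1.35 ± 0.38, and for Gpam 1.04 ± 0.31 and 1.24 ± 0.31. With the pool as block Gpd1 passed with TPhP (adjusted p = 0.00683) and MEHP (adjusted p = 0.015), and Pck1 with MEHP (adjusted p = 0.0269). The mean of the Gpd1 probe sets also passed with limma, with TPhP (2.33, adjusted p = 0.00731) and MEHP (2.23, adjusted p = 0.00892). With LG268 limma called none, and changes ran between -0.54 and 0.89. Shares of all genes called for a positive change were 1.37% with TBT, 3.66% with TPhP, 4.29% with MEHP and 0.0805% with LG268 (915 genes at an unadjusted p under 0.05 for LG268). These counts rested on few arrays: leaving out 1 pool at a time gave 1 to 5 genes with TBT, 2 to 5 with TPhP and 2 to 6 with MEHP, the lowest counts without pool 19 or 20. Agpat2 passed for Rosi, TBT, TPhP and MEHP with each pool left out in turn, as did Dgat1 for Rosi and TPhP. Dgat2 lost its call without pool 19 for TBT, TPhP and MEHP (adjusted p = 0.0835, 0.0593 and 0.0581), Dgat1 for MEHP without pool 20 (adjusted p = 0.0654), and Gpd1 and Dgat1 for TBT without pool 15, 19 or 20. Gpam and Lpin1 lost theirs for TPhP and MEHP without pool 19 or 20 (adjusted p between 0.149 and 0.310). Without pool 15, Gpam lost its call for TPhP (adjusted p = 0.0530) and Lpin1 for MEHP (adjusted p = 0.0553). The Gpam call for TPhP was also lost with cyclic loess (adjusted p = 0.0571), with no filter (adjusted p = 0.0575) and with only the arrays compared (adjusted p = 0.0677). With only the arrays compared, Lpin1 for TPhP (adjusted p = 0.0594) and Gpam for MEHP (adjusted p = 0.0664) were lost as well, and with no filter Gpd1 for TBT (adjusted p = 0.0513).

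Set against Rosi itself, the other chemicals had lower values in parts of the pathway at both days. At day 1, TBT was lower than Rosi in 5 genes, Gpd1 (-3.96 ± 0.51), Dgat2 (-2.38 ± 0.38), Aqp7 (-1.64 ± 0.24), Dgat1 (-1.51 ± 0.26) and Agpat2 (-1.12 ± 0.25). TPhP was lower in Gpd1 (-2.96 ± 0.51), Dgat2 (-1.72 ± 0.38), Aqp7 (-1.52 ± 0.24), Dgat1 (-1.37 ± 0.26) and Agpat2 (-0.93 ± 0.25). MEHP was lower in 4, Gpd1 (-2.61 ± 0.51), Dgat2 (-1.95 ± 0.38), Aqp7 (-1.40 ± 0.24) and Dgat1 (-1.35 ± 0.26), and LG268 in 4, Gpd1 (-2.69 ± 0.51), Aqp7 (-2.64 ± 0.24), Dgat2 (-2.41 ± 0.38) and Dgat1 (-1.57 ± 0.26). All of these comparisons share the 4 Rosi arrays. The shares of all genes called lower than Rosi were 1.66% with TBT, 1.72% with TPhP, 1.38% with MEHP and 3.61% with LG268. With the pool as block Gpam with LG268 (adjusted p = 0.0421), Lpin1 with TBT (adjusted p = 0.0463) and Agpat2 with MEHP (adjusted p = 0.0199) passed too. Agpat2 as the fifth gene with TPhP (adjusted p = 0.0308) did not pass without pool 12, 15 or 19 (adjusted p between 0.117 and 0.198). Leaving out 1 pool also ended the calls of Agpat2 with TBT (pool 15 or 19), Dgat2 with TPhP (pool 19 or 20), and Gpd1 (pool 15 or 19) and Dgat1 (pool 20) with MEHP, at adjusted p between 0.0516 and 0.0847.

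At day 4 LG268 was lower than Rosi in all 8 genes, by -1.68 to -4.15, beside 21.5% of all genes. TBT was lower in 5 genes, Pck1 (-4.21 ± 0.37), Lpin1 (-1.31 ± 0.27), Dgat1 (-1.31 ± 0.26), Gpam (-1.10 ± 0.22) and Agpat2 (-0.78 ± 0.25, adjusted p = 0.0112), beside 18% of all genes. TPhP and MEHP were each lower in 4, Pck1 (-2.75 ± 0.37 and -2.57 ± 0.37), Lpin1 (-0.94 ± 0.27 and -0.91 ± 0.27), Dgat1 (-0.82 ± 0.26 and -0.91 ± 0.26) and Gpam (-0.87 ± 0.22 and -0.76 ± 0.22), beside 13.1% and 13.4% of all genes. For Gpd1 no difference from Rosi passed with TBT, TPhP or MEHP: the values were -0.70 (95% interval -1.74 to 0.33), -0.37 (-1.40 to 0.67) and -0.26 (-1.30 to 0.78). All 4 TBT arrays of Gpd1 nevertheless lay below all 4 Rosi arrays. That difference passed with the mean of the Gpd1 probe sets (-1.01, adjusted p = 0.0343) and with only the arrays compared (adjusted p = 0.0450). Dgat2 and Aqp7 did not pass either, with intervals between -1.63 and 0.42. With the pool as block Dgat2 passed with TBT (adjusted p = 0.00671) and Agpat2 with TPhP (adjusted p = 0.0454) and MEHP (adjusted p = 0.0371). Without the Rosi array of pool 15, Aqp7 was lower with TBT (adjusted p = 0.0327), TPhP (adjusted p = 0.0491) and MEHP (adjusted p = 0.0292), and Dgat2 with TBT (adjusted p = 0.0416). Without pool 12, TPhP and MEHP no longer passed for Lpin1 (adjusted p = 0.0514 and 0.0664) and Dgat1 (adjusted p = 0.0998 and 0.172), nor MEHP for Gpam (adjusted p = 0.176) or TBT for Agpat2 (adjusted p = 0.0785). Without pool 15 TBT did not pass for Agpat2 (adjusted p = 0.0563), and without pool 20 TPhP did not for Dgat1 (adjusted p = 0.0609) or MEHP for Lpin1 (adjusted p = 0.0572). With only the arrays compared, TPhP kept 1 call of 4 (Pck1) and MEHP none; Pck1 with MEHP then had an adjusted p of 0.0659, and the others lay between 0.0937 and 0.214.

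**Figure D3:**
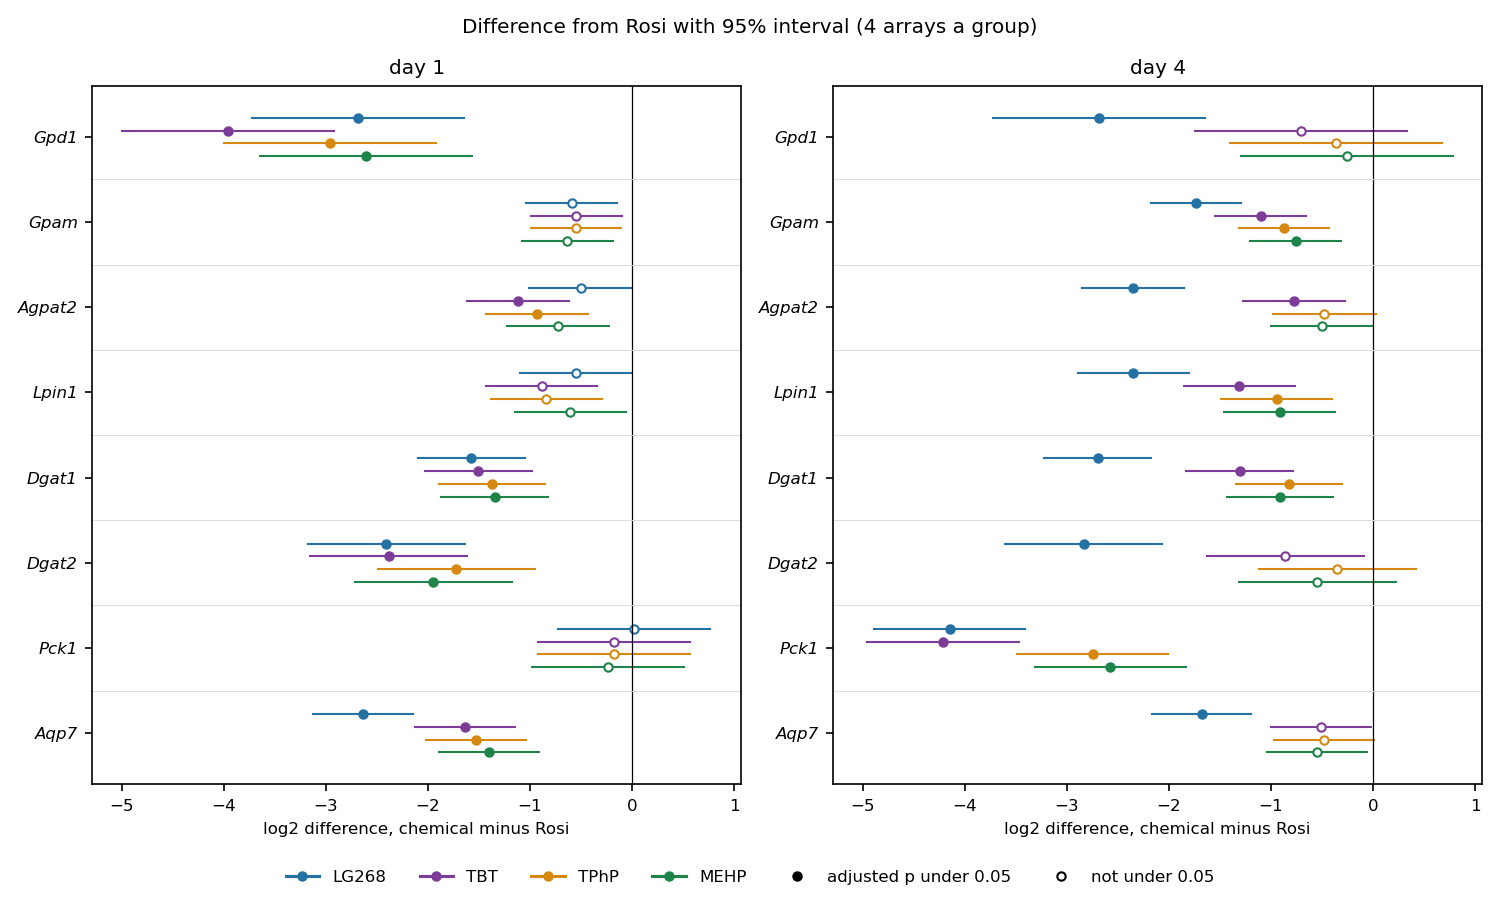
Log2 difference of LG268, TBT, TPhP and MEHP from Rosi of the same day with its 95% interval; filled points passed at an adjusted p under 0.05. The Pck1 points lie near zero at day 1 and between -4.21 and -2.57 at day 4, while TBT, TPhP and MEHP approach zero for Gpd1.

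TBT was also set against LG268, since both bind RXR. At day 4 TBT was higher in 6 genes, Gpd1 (1.98 ± 0.51, adjusted p = 0.0217), Dgat2 (1.98 ± 0.38, adjusted p = 0.00166), Agpat2 (1.57 ± 0.25, adjusted p = 0.000304), Dgat1 (1.39 ± 0.26, adjusted p = 0.00113), Aqp7 (1.17 ± 0.24, adjusted p = 0.00322) and Lpin1 (1.04 ± 0.27, adjusted p = 0.0217), beside 2.55% of all genes. In each of these 6 no TBT array overlapped an LG268 array, which describes genes already called and is no further support. Gpam differed by 0.63 (95% interval 0.19 to 1.08, adjusted p = 0.112) and Pck1 by -0.07 (-0.81 to 0.68). Gpam passed with the pool as block (adjusted p = 0.0439). Without pool 20, Gpd1, Lpin1, Dgat1, Dgat2 and Aqp7 lost their calls (adjusted p between 0.0528 and 0.343) and Agpat2 kept its own. Gpd1 and Lpin1 also lost theirs without pool 15 (adjusted p = 0.142 and 0.0846), and without pool 19 so did Gpd1, Lpin1, Dgat2 and Aqp7 (adjusted p between 0.0516 and 0.267). With only the arrays compared, Lpin1 (adjusted p = 0.0759) and Dgat2 (adjusted p = 0.0588) did not pass. At day 1 limma called none of the 8 and 0% of all genes (276 genes at an unadjusted p under 0.05, and 1 called with the pool as block). Aqp7 was then 8.66, 8.73, 8.67 and 8.59 with TBT, against 7.53, 7.63, 7.64 and 7.85 with LG268; the groups did not overlap, and the difference of 1.00 ± 0.24 had an adjusted p of 0.597, and of 0.00382 with only the arrays compared.

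TPhP and MEHP, whose doses are not known here and may differ, differed on average by -0.35 to 0.22 over the 8 genes at day 1 and by -0.18 to 0.20 at day 4. None of the 8 passed at either day, and of all genes 0% were called at day 1 and 0.0134% at day 4, in either direction (245 and 543 genes at an unadjusted p under 0.05). The intervals still allow differences: for Gpd1 at day 1 the difference, TPhP minus MEHP, was -0.35 (95% interval -1.39 to 0.68), and for Pck1 at day 4 it was -0.18 (-0.92 to 0.57).

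Most of the 8 enzymes have isozymes, and these did not move as 1 group. Of 16 isozymes and paralogs listed, 14 were tested, and Gpat2 and Mogat1 lay under the filter on low values. With Rosi at day 4, 5 of 14 rose and 2 fell, beside 21.3% and 27.7% of all genes, with a median difference of 0.03, beside -0.05 for all genes. These counts are not read as particular to the isozymes. Gpat3, the acyltransferase of the endoplasmic reticulum that does the work of Gpam there, averaged 9.97 with Rosi and 5.41 with vehicle, a rise of 4.56 ± 0.30 (adjusted p = 5.1e-16). The Gpam difference in the same comparison was 2.19 ± 0.22, and Gpat4 rose by 1.04 ± 0.14 (adjusted p = 5.26e-08). At the next step Agpat3 rose by 1.18 ± 0.12 and Agpat1 by 0.43 ± 0.10, while Agpat4 fell by 0.78 on the log2 scale (SE 0.13). Gpd2, the mitochondrial glycerol-3-phosphate dehydrogenase, rose by 1.21 ± 0.22 (adjusted p = 1.27e-05), and Lpin2 fell by 0.36 on the log2 scale (adjusted p = 0.00254).

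With Rosi at day 1, Gpat3 rose (2.65 ± 0.30, adjusted p = 1.04e-08) and Lpin3 fell by 0.65 on the log2 scale (adjusted p = 0.000542). Gpat3 at day 4 rose by 3.19 ± 0.30 with both TPhP and MEHP and by 1.92 ± 0.30 with TBT (adjusted p = 6.14e-06), and differed by 0.54 ± 0.30 with LG268 (adjusted p = 0.302). Counts at day 4 were 3 higher with TBT, 4 higher and 1 lower with TPhP, the same with MEHP, and 0 with LG268, by limma, beside 10.6%, 11%, 12.1% and 4.21% of all genes called higher. Pck2, the mitochondrial counterpart of Pck1, averaged 8.25 with Rosi and 7.88 with vehicle at day 4, a difference of 0.37 ± 0.18 (adjusted p = 0.0826), and differed by -0.09 to 0.11 with the other chemicals. Aqp3 and Aqp9, glycerol channels of other tissues, did not pass in any comparison with vehicle.

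**Figure D4:**
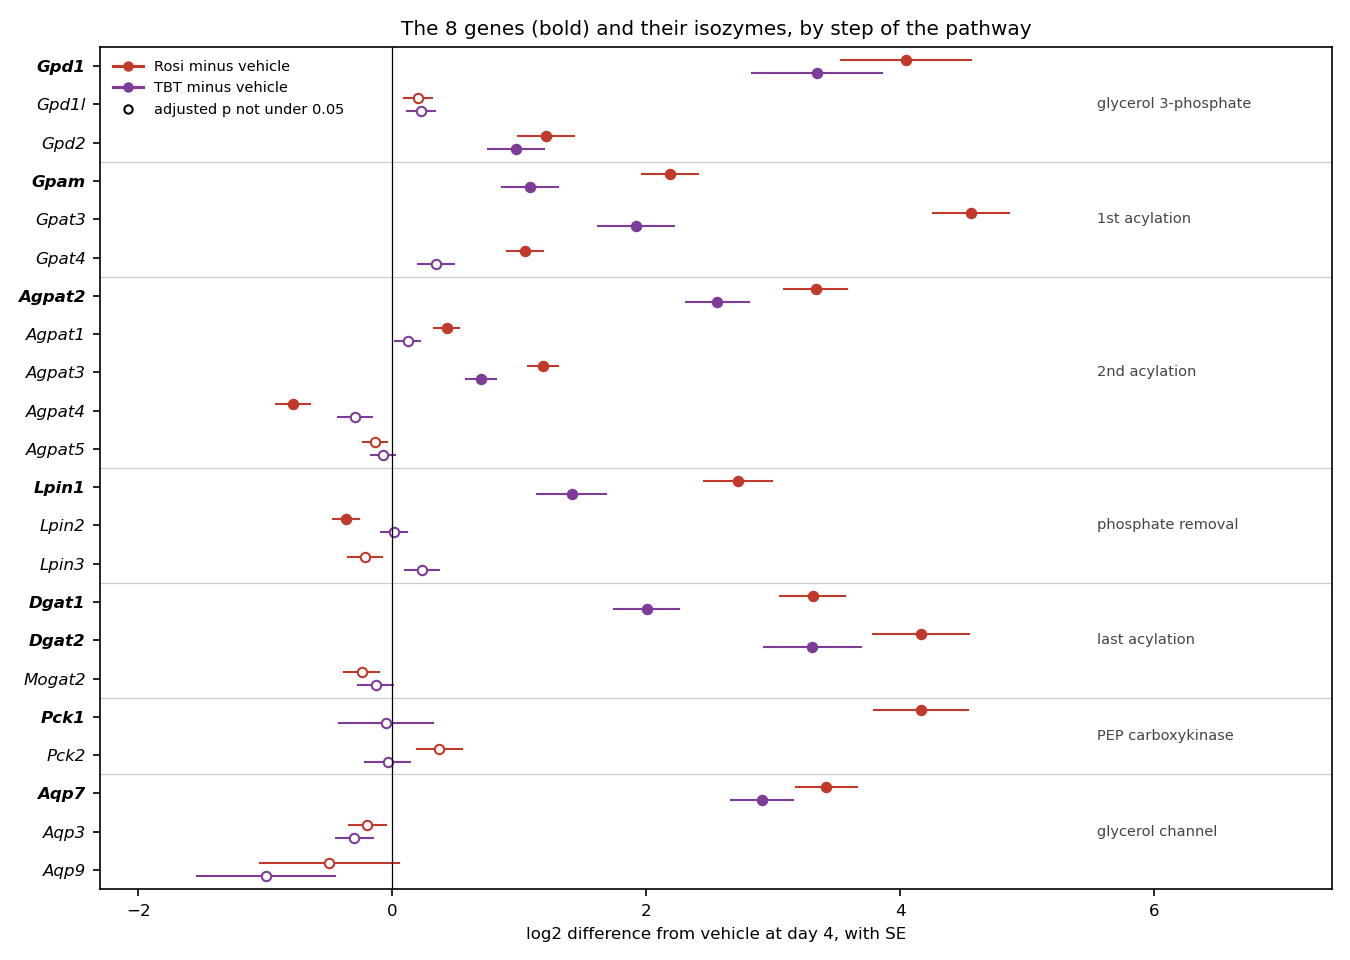
Log2 difference from vehicle at day 4 for the 8 genes (bold) and the 14 isozymes and paralogs tested, grouped by the step they serve, with Rosi above TBT and the line giving 1 SE; open points did not pass. Gpat3 reaches 4.56 with Rosi, while Pck2 and the other aquaporins stay at 0.37 or less.

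Many genes that supply the pathway or handle its product rose at day 4. Of 14 listed, 11 were tested; Gk, Acsl1 and Acsl3 had no probe set of their own here. With Rosi at day 4, 7 rose and 1 fell, beside 21.3% and 27.7% of all genes, with a median of 1.10. By smallest adjusted p, the genes named are Cd36 (2.15 ± 0.16), a fatty acid translocase, Fitm2 (3.67 ± 0.28), a protein of droplet budding, and Pcx (4.22 ± 0.34), pyruvate carboxylase, which makes the substrate of PCK1. Slc2a4 (4.37 ± 0.38), the insulin-responsive glucose transporter, Lpl (1.10 ± 0.10), lipoprotein lipase, and Mdh1 (1.45 ± 0.14), malate dehydrogenase, were next in that order, Slc2a4 having the highest difference of the 6. At the same day 8 rose with TBT, 7 with TPhP, 7 with MEHP with 1 lower, and 5 with LG268, beside 10.6%, 11%, 12.1% and 4.21% of all genes called higher in that order. At day 1, 5 rose with Rosi, 3 with TBT, 1 with TPhP, 2 with MEHP and 2 with LG268. The shares of all genes called higher were 4.16%, 0.496%, 0.181%, 0.362% and 0.228% in that order. Pcx rose at day 1 with Rosi (2.21 ± 0.34, adjusted p = 9.95e-06), a day at which Pck1 did not pass. Acsl4, an acyl-CoA synthetase named after its values were seen, rose with LG268 and TBT at day 1 (0.80 ± 0.14 and 0.57 ± 0.14) and day 4 (1.07 ± 0.14 and 0.76 ± 0.14), and differed by 0.20 ± 0.14 with Rosi at day 4 (adjusted p = 0.247).

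Of 12 regulators listed, 11 were tested and 10 rose with Rosi at day 4, beside 21.3% of all genes. Ppargc1a, a coactivator that drives Pck1 in liver, averaged 7.87 with Rosi and 3.22 with vehicle, a rise of 4.65 ± 0.30; vehicle lay below the table median, so the size is uncertain. Mlxipl (3.30 ± 0.26), the glucose-sensing factor ChREBP, Srebf1 (2.27 ± 0.19), a factor of fatty acid synthesis, Cebpa (1.51 ± 0.15), Nr1h3 (1.37 ± 0.15), which encodes LXRα, and Pparg itself (1.24 ± 0.14) rose too. Ppargc1a also rose with TBT (2.41 ± 0.30), TPhP (2.84 ± 0.30) and MEHP (2.85 ± 0.30). In all, 7 of 11 rose with TBT, 8 with TPhP, 8 with MEHP and 3 with LG268 at day 4, beside 10.6%, 11%, 12.1% and 4.21% of all genes. At day 1 limma called 5 with Rosi, 2 with TBT, 1 with MEHP, 1 with LG268 and none with TPhP, all of them higher. Beside these counts, 4.16%, 0.496%, 0.362%, 0.228% and 0.181% of all genes were called higher in that order. Srebf1 was called at day 1 with LG268 (1.04 ± 0.19, adjusted p = 0.00304), Rosi (0.68 ± 0.19, adjusted p = 0.0208) and TBT (0.81 ± 0.19, adjusted p = 0.0325).

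Among 6 adipocyte markers tested, Lep, the leptin gene, passed at day 4 for the chemicals for which Pck1 passed. It rose with Rosi (2.47 ± 0.37), TPhP (2.23 ± 0.37) and MEHP (1.97 ± 0.37), and differed by 0.03 ± 0.37 with TBT and 0.00 ± 0.37 with LG268. The other 5 markers, Adipoq, Fabp4, Plin1, Cidec and Retn, rose with TBT at day 4 as well as with Rosi, TPhP and MEHP. Lep was picked out after its values were seen, and its vehicle mean of 3.16 lay under the table median.

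Over the 13 group means, the members followed one another closely apart from Pck1. The median Pearson correlation of a gene with the other 7 ran from 0.89 for Aqp7 to 0.96 for Dgat1, and was 0.76 for Pck1; these groups share pools, vehicle and array normalization, and the values are descriptions. The genes tested whose group means followed a member most closely were Cidec, Plin1 and Aldh1a7 for Gpd1, Poldip2, Acyp2 and Pla2g6 for Gpam, and A530016L24Rik, Slc2a4 and Slc36a2 for Agpat2. For Lpin1 they were Slc36a2, Tshr and Ptgr2, for Dgat1 Lipe, Acadm and Plaat3, and for Dgat2 Map7d2, Sik2 and B3galt2. Pck1 had Adtrp, Ubd and Ctcflos, and Aqp7 had Fabp4, Rnf125 and Adipor2. All of these correlations lay between 0.979 and 0.996.

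In several day 4 groups the 8 genes shared an order of pools. With TBT, TPhP and MEHP, pools 19 and 20 both lay above pools 12 and 15 in 8 of 8 genes, an order seen after the values were known. Of all genes tested, 23.7% had that order with TBT, 21.6% with TPhP and 25.6% with MEHP. With LG268 7 of 8 genes had it (21.7% of all genes), with vehicle 6 (30.3%) and with Rosi 3 (21.1%). At day 1 the order held in 0 genes with Rosi (17.3% of all genes), 1 with TPhP (12.1%), 2 with TBT (24.3%) and 3 with MEHP (19.7%). It held in 5 genes with LG268 (19.2%), 2 with vehicle (23.4%) and 1 in naive cells (14.6%). The means over 6 adipocyte markers had the same order at day 4: 8.75, 9.24, 9.59 and 9.63 with TBT, 9.04, 9.59, 10.40 and 10.32 with TPhP, and 5.59, 6.80, 7.23 and 7.54 with vehicle. At day 4 with TPhP and MEHP, Pck1 exceeded vehicle of its own pool by 0.57 to 0.98 in pools 12 and 15 and by 1.69 to 2.79 in pools 19 and 20.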

How the data were processed

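The authors' deposited table holds log2 values of 41345 probe sets on 52 arrays, for which the submitters' processing notes name R 3.3.1 and oligo. How background was corrected and arrays normalized is not given in the sources used here. Of the probe sets, 23521 carried 1 gene, 1814 several and 16010 none; the first kind was used. A gene was tested if at least 4 arrays lay above the table median.

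Groups were compared with limma 3.58.1 in R 4.3.3 (group means, all 52 arrays in 1 fit, 39 residual degrees of freedom) by two-sided tests, adjusted after Benjamini and Hochberg over 14911 genes, at a threshold of 0.05. The labels' protocol makes a pool of animals 1 experiment, so a second fit held the pool as replicate block: with group means removed, 45 of 52 arrays were most correlated with their own pool, and 233 of 312 same-pool pairs exceeded 0.1. No arrays were identical. On simulated data for Rosi at day 1 over 14911 genes, 54% of genes changed by 0.5 were recovered and 94% of those changed by 1.

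The 8 genes, the companion lists and the cell type markers were chosen with earlier results of these data known. All 8 are described; of a companion list, up to 6 genes called with Rosi were named by smallest adjusted p, and 3 genes with the closest group means per member. Alternatives were the replicate block, cyclic loess, no filter, a filter at the 75th percentile (6.34), the mean of probe sets, only the arrays compared, each pool left out and, added after seeing the data, the Rosi array of pool 15 at day 4 left out. Gene positions and promoter windows are RefSeq's (GRCm38.p6). Python 3.11.15, pandas 2.3.3 and matplotlib 3.10.9 were used.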

Additional observations from a re-analysis of the deposited data

Results flagged for a closer look

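Of 104 groups of 4 arrays (8 genes, 13 groups), 4 held an array far from the other 3; chance alone marks about 1 in 20 groups. Gpd1 in naive cells was 7.69 in pool 20, against 5.54 to 5.66 in the others. In Rosi cultures at day 4, pool 15 had Gpam at 9.23, against 10.12 to 10.23, and Dgat1 at 9.28, against 10.10 to 10.21. Aqp7 with LG268 at day 4 was 8.99 in pool 12, against 9.31 to 9.33.

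The difference from vehicle changed between day 1 and day 4, by limma's interaction test, for 19 pairs of gene and chemical. With Rosi the changes were 1.37 for Gpam, 2.20 for Agpat2, 1.66 for Lpin1, 1.43 for Dgat1 and 3.88 for Pck1. With TBT they were 2.72 for Gpd1, 2.54 for Agpat2, 1.63 for Dgat1 and 2.84 for Dgat2. With TPhP they were 1.04 for Gpam, 2.65 for Agpat2, 1.55 for Lpin1, 1.97 for Dgat1 and 2.68 for Dgat2, and with MEHP 1.24, 2.42, 1.35, 1.86 and 2.71 for these genes in that order.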

How the results depend on the processing

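Over 30 comparisons and the alternatives tried, none of 2448 values of single genes changed direction with a call; 26 changed sign with no call on either side, 92 lost their call and 52 gained one. With the replicate block, genes called went to 1 for LG268, 3 for TPhP and 2 for MEHP at day 1 (0, 1 and 1 without it). They went to 4 for vehicle at day 4 against day 1 (2 without it), and other counts stayed within 1.5 times. Calls over all genes went from 36 to 68, 32 to 71, 78 to 176 and 1922 to 2605 for these comparisons in that order. With only the arrays compared, 1 gene was called for LG268, 2 for TPhP and 2 for MEHP at day 1, 1 for LG268 at day 4, 1 for vehicle at day 4 against naive cells, 3 for TPhP's change between days, 1 for TBT against LG268 at day 1, and 1 for TPhP and 0 for MEHP against Rosi at day 4, where the fit has fewer samples. The filter at the 75th percentile gave 2 for MEHP at day 1. Cyclic loess, no filter and the mean of probe sets moved no count by over 1.5 times, though single calls changed. Leaving out 1 pool gave 0 to 1 for LG268 and 1 to 2 for MEHP at day 1, 1 to 3 for LG268 at day 4, 1 to 3 for vehicle at day 4 against naive cells and 1 to 3 against day 1. It gave 1 to 5 for TBT's, 2 to 5 for TPhP's and 2 to 6 for MEHP's change between days, 3 to 4 for TPhP against Rosi at day 1, 2 to 5 for TPhP and 1 to 5 for MEHP against Rosi at day 4 (the Rosi array of pool 15 left out included) and 1 to 6 for TBT against LG268 at day 4. Counts over all genes moved too, for instance from 264 to 20 for TBT's change between days without pool 19. The cause of these changes was not tested. On simulated data for Rosi at day 1, made without pool effects, 54% of genes changed by 0.5 were recovered. With 4 arrays a group many differences of that size are thus missed, and the share in the real arrays may differ. Pck1 lies near the low end of the signal outside Rosi, TPhP and MEHP at day 4.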
